A study of Mus with 6 samples.

Results

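miR-218 is a microRNA made from a pair of genes, Mir218-1 and Mir218-2, which lie inside the genes of the secreted guidance proteins Slit2 and Slit3. Its rows were chosen by name, as every entry of the 6 count tables of the series that begins with miR-218, and 3 such names were found: mmu-miR-218-5p, mmu-miR-218-1-3p and mmu-miR-218-2-3p, written below without the species prefix. The tables list 1053 names in 4 libraries and 1186 in the other 2, with 929 known mouse miRNA names in all 6. The family was singled out after the higher level of miR-218-5p in exposed cells was known, so its difference between the groups is given below as a description and supports nothing further.

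Small RNA was sequenced from adipocytes labelled wild type (genotype WT) of strain C57BL/6. By their labels 3 libraries are controls and 3 come from cells under chronic intermittent hypoxia (CIH), in which oxygen falls and recovers repeatedly, as it does in sleep apnoea. The labels name no age, oxygen regime or duration, and do not say whether the libraries came from separate animals. p-values therefore reflect only how these libraries vary, and that variation may be technical. The tables hold miRNA names only, so the adipocyte label was not checked against messenger RNA markers.

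Slit proteins bind Robo receptors and steer migrating axons and cells. miR-218 is known to repress Robo1 and Robo2, the receptors of its own host genes' products, and is abundant in motor neurons. In bone marrow stromal cells, the progenitors shared by bone and fat, it is reported to favour bone formation by repressing inhibitors of Wnt signalling. Slit2 is itself known as a factor secreted by beige adipocytes. None of these messenger RNAs was measured here, and only the miRNA can be followed.

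Both genes lie in the span of their hosts on GRCm38. Mir218-1 is on chromosome 5 from 48223942 to 48224051, within the span of Slit2 (47981291 to 48307735), and begins 242651 bases from the low-coordinate end of that span. Mir218-2 is on chromosome 11 from 35616816 to 35616925, within the span of Slit3 (35121456 to 35708507), 495360 bases from its low-coordinate end. Each is 110 bases long. They are the only miRNA genes of the RefSeq table inside either span, and whether they are intronic was not read from it, since it gives no exons. The 5p arm, cut from the 5′ side of the hairpin, has one name for both genes, so its reads cannot be assigned to a copy. The 3p arms have a name each and are the only reads here that tell Slit2's copy from Slit3's.

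In each group the library numbered 3 was unlike the others. Total counts ran from 6291101 to 11264151, and a count of 3, used as a floor, was worth 0.266 to 0.477 CPM (reads per 1000000 reads of the library). miR-148a-3p took 49.4% of control library 3 and 24.9% of CIH library 3, against 2.81% to 5.53% of the other 4 libraries. Any other miRNA has a smaller share of a library in which one name takes so much. Results are therefore given with and without these libraries and under more than one scaling. Intervals and floors cover counting error only.

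miR-218-5p was moderately abundant in these cells, with all CIH libraries above all controls. Control libraries 1, 2 and 3 held 1172, 1280 and 661 CPM of it. CIH libraries 1, 2 and 3 held 2590, 1469 and 2562 CPM. The groups did not overlap, but CIH library 2 lay close to control library 2, and control library 3 lay well below the other controls. The control mean was 1038 ± 331 CPM and the CIH mean 2207 ± 639 CPM (SD, n = 3 each), a ratio of 2.13. Of 257 miRNAs with a mean of at least 10 CPM, 21 (8.17%) were higher in every CIH library than in every control, so miR-218-5p is one of a group of that size.

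These levels rested on many reads. Control libraries 1, 2 and 3 had 7375, 12445 and 5462 reads of miR-218-5p, and CIH libraries 1, 2 and 3 had 19002, 14752 and 28857. The 95% exact Poisson interval of the lowest library, control 3, was 644 to 679 CPM and that of the highest, CIH 1, was 2553 to 2627 CPM. In the order of levels, control 3 was followed by control 1, control 2, CIH 2, CIH 3 and CIH 1. Only CIH 3 and CIH 1 were neighbours whose intervals overlapped (2532 to 2592 CPM for CIH 3). Counting error was thus small beside the spread within a group, where the highest library was 1.94 times the lowest in control and 1.76 times in CIH. By rank in its own library miR-218-5p took place 44, 41 and 45 among control libraries 1, 2 and 3 and place 29, 39 and 32 among CIH libraries 1, 2 and 3, with 0.0661% to 0.259% of all reads.

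The low value of control library 3 moved with the share of miR-148a-3p. Counted per 1000000 reads other than those of miR-148a-3p, control libraries 1, 2 and 3 held 1241, 1343 and 1306 reads of miR-218-5p, or 1297 ± 51.8 (SD, n = 3). On that scale CIH libraries 1, 2 and 3 stood at 2670, 1511 and 3412, or 2531 ± 958 (SD, n = 3). The controls were then close together and the CIH libraries spread out, with the groups still apart and a ratio of the means of 1.95. On this scale 15 of the 257 miRNAs (5.84%) were higher in every CIH library. The place of control library 3 depended on the scaling. Per 1000000 reads other than those of the 10 most abundant miRNAs it was again the lowest control, at 4181 against 5161 and 5984 in control libraries 1 and 2. The ratio of the means was 1.92 there.

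TMM scaling, which sets libraries against each other by the bulk of their miRNAs and not by their totals, gave a like picture. Control libraries 1, 2 and 3 then held 978, 1163 and 1040 CPM of miR-218-5p, and CIH libraries 1, 2 and 3 held 2257, 1568 and 2309 CPM. The means were 1060 ± 93.8 and 2045 ± 413 (SD, n = 3 each). Here 22 of the 257 miRNAs (8.56%) did not overlap in that direction.

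**Figure D1:**
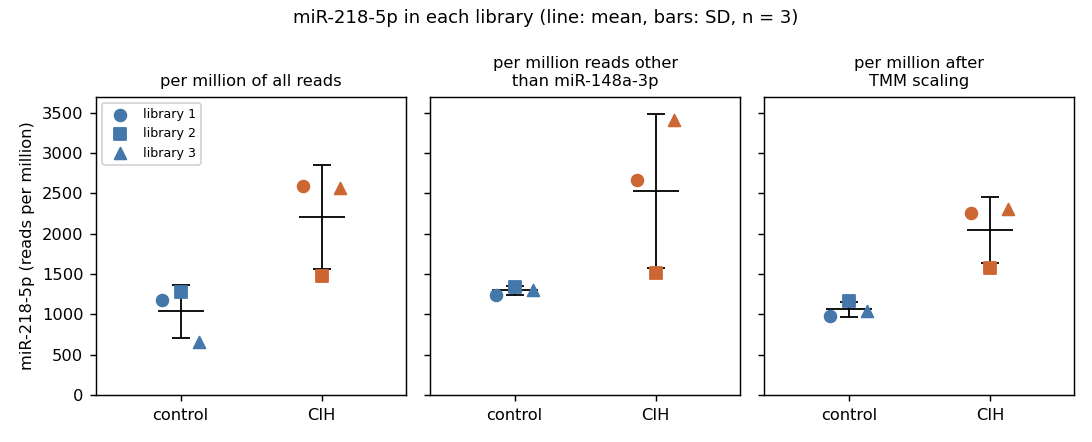
Level of miR-218-5p (reads per 1000000, vertical axis from 0) in 3 control and 3 CIH libraries under 3 scalings, with symbols for the library number, a line for the mean and bars for the SD. All CIH points lie above all control points in each panel, and CIH library 2 is the lowest of its group throughout. Among these 3 scalings control library 3 is the lowest control only per 1000000 reads of the whole library (661 against 1306 without miR-148a-3p).

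Pair by pair, the size of the difference varied. In the libraries numbered 1, CIH held 2.21 times the control level of miR-218-5p (95% exact interval of the ratio of counts 2.15 to 2.27). In those numbered 2 it held 1.15 times (1.12 to 1.18), and in those numbered 3 it held 3.87 times (3.76 to 3.99). These intervals do not overlap, so the pairs differed by more than counting error. After TMM scaling the 3 ratios were 2.31, 1.35 and 2.22, so the pair numbered 3 came down to the size of the pair numbered 1, and the pair numbered 2 was still the smallest.

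Set among the other miRNAs of the same pair, miR-218-5p lay on the upper side each time. On the scale of log2(CPM + 0.5), it was 1.23 above the median difference of the 257 miRNAs in the libraries numbered 1 and ranked 14 from the highest. In those numbered 2 it was 0.36 above the median and ranked 44, and in those numbered 3 it was 1.02 above the median and ranked 55. The rank was lowest in the pair numbered 3 although the ratio was largest there. The median difference of that pair was itself 0.93, with 78.2% of the miRNAs higher in CIH. The medians were -0.08 and -0.16 in the pairs numbered 1 and 2. In all, 55 of the 257 miRNAs (21.4%) were higher in CIH in all 3 pairs.

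**Figure D2:**
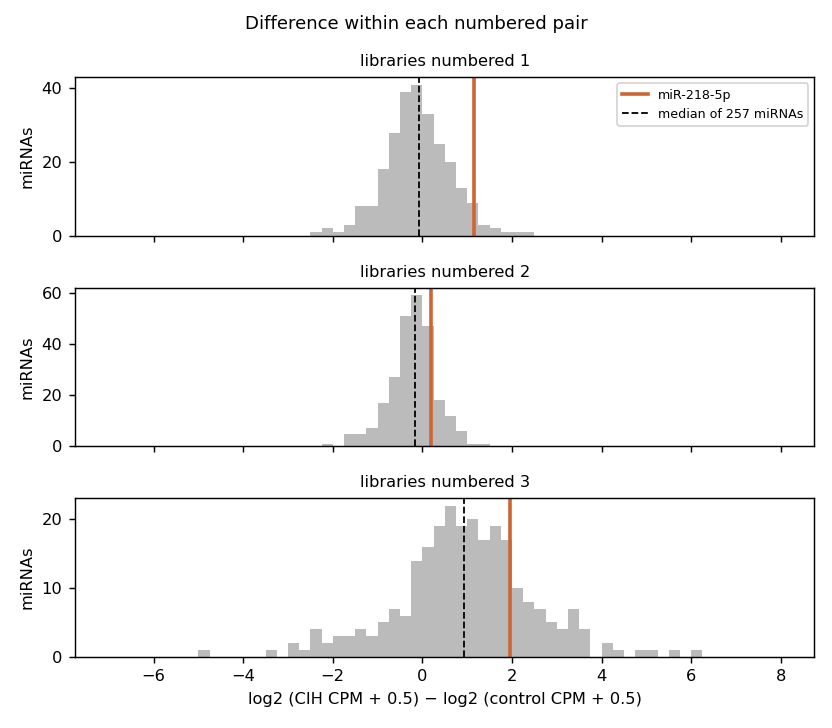
Number of miRNAs (vertical axis) by their difference between the CIH and the control library of the same number (horizontal axis, log2 scale with 0.5 CPM added), for 257 miRNAs with a mean of at least 10 CPM. The line of miR-218-5p lies to the right of the dashed median in each panel, by 1.23, 0.36 and 1.02 in the pairs numbered 1, 2 and 3, and the whole distribution of the pair numbered 3 is wide and shifted to a median of 0.93.

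In the model of all 6 libraries, miR-218-5p had a log2 difference of 0.95 (SE 0.40) between CIH and control. It was not called, as no miRNA was: edgeR's quasi-likelihood test called 0 of 456 (0%) at a Benjamini-Hochberg adjusted p under 0.05, with 23 at an unadjusted p under 0.05. DESeq2 called 0 as well, with 37 below an unadjusted 0.05, and so did limma-voom, with 21. The value was 0.95 without control library 3 and 0.85 without CIH library 3, about as large as with them.

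Within the 4 libraries numbered 1 and 2 the log2 difference of miR-218-5p was 0.83 (SE 0.22). It was among the 19 of 459 miRNAs (4.14%) called higher there by the same test, the contrast for which it was singled out. The call rested on 3 of the 4 libraries and on the scaling. It was lost without control library 1 (log2 difference 0.70), without control library 2 (1.03), without CIH library 1 (0.54) and with library totals alone as the scaling (0.73).

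The CIH difference of miR-218-5p was not shown to differ between the 2 sets of libraries. The interaction of group and set was 0.31 on the log2 scale (SE 0.38), with an edgeR adjusted p of 0.571, where 138 of 456 miRNAs (30.3%) were called. The pair numbered 3 has 1 library per group, and the fit assumes that it varies like the others.

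The contrast between sets is one that the choice of miR-218 did not use. With group in the model, miR-218-5p differed between the libraries numbered 3 and those numbered 1 and 2 by 0.12 on the log2 scale (SE 0.30, edgeR adjusted p = 0.798), while 114 of 456 miRNAs (25%) were called. The sign of this small value depends on the scaling, at -0.23 with library totals alone. A missed threshold does not show equal levels.

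The 3p arms of miR-218 were barely present. For miR-218-1-3p, from the copy in Slit2, control libraries 1, 2 and 3 had 1, 8 and 3 reads and CIH libraries 1, 2 and 3 had 5, 4 and 12. The controls lay at 0.159 to 0.823 CPM and the CIH libraries at 0.398 to 1.07 CPM, with overlapping groups and with control library 1 below the floor of 3 reads and control library 3 at it. For miR-218-2-3p, from the copy in Slit3, control library 1 had 1 read, control library 2 had 0, which allows up to 0.309 CPM, and CIH libraries 1 and 2 had 1 read each, all below the floor. The tables of the libraries numbered 3 do not list miR-218-2-3p. They do list 249 names at 0 in both libraries, so a name that is left out there was not read as 0. Of the 3 names only miR-218-5p passed the filter on low counts, and no difference between groups was fitted for the 3p arms.

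Arm use was one-sided in every library. Over all 6 libraries there were 87893 reads of the 5p arm and 36 of the 3p arms, or 0.0409% of miR-218 reads on the 3p side (95% exact binomial interval 0.0287% to 0.0567%). By library the 3p share was 0.0271%, 0.0642% and 0.0549% in control 1, 2 and 3 and 0.0316%, 0.0339% and 0.0416% in CIH 1, 2 and 3. The groups overlapped, with means of 0.0487% ± 0.0193 and 0.0357% ± 0.00524 (SD, n = 3 each). A two-sided exact permutation test gave p = 0.4 (adjusted p = 0.8 over the 2 shares tested), where the smallest p of 3 against 3 is 0.1. With 2 to 12 reads of the 3p arms per library, a moderate shift in arm use was not detectable at this depth.

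Most of the few 3p reads came from the copy in Slit2. In the 4 tables that list both names, 18 of 21 reads (85.7%, 95% exact binomial interval 63.7% to 97.0%) were miR-218-1-3p and 3 were miR-218-2-3p. Control libraries 1 and 2 gave shares of 50% and 100%, from 2 and 8 reads, and CIH libraries 1 and 2 gave 83.3% and 80%, from 6 and 5 reads. The groups overlapped (two-sided exact permutation p = 1 with 2 libraries per group, adjusted p = 1), and these counts cannot show a difference in copy use. The share counts surviving 3p strands, which need not follow how much each copy is transcribed.

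miRNAs of the same build give a scale for this. There were 18 miRNAs whose copies numbered 1 and 2 share one named arm and have a name each for the other arm, miR-218 included. Their copy-specific arms made up a median of 5.28% of the reads. miR-218, at 0.0409%, lay with let-7f, at 0.0332%, and miR-26a, at 0.0418%, at the low end of the 18. The interval of miR-218 covers both of these, so the order of the 3 is not resolved, and its share pools 2 tables that do not list its second copy. let-7f-5p and miR-26a-5p, at a mean of 18740 and 19284 CPM, were far more abundant than miR-218-5p, at 1622 CPM, which was ninth of the 18 by its shared arm. The next in abundance were miR-24 and miR-3074, at 10.3% each, and miR-125b, at 8.16%. miR-24 and miR-3074 hold nearly the same counts, so their reads cannot be told apart and they are not separate examples.

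Which copy leads varied among these miRNAs. Copy 1 held 64.9% of the copy-specific reads of let-7f, 1.71% of miR-26a, 0.486% of miR-24 and 26.1% of miR-125b, against the 85.7% of miR-218. These shares are descriptions of the pooled libraries and were not tested against each other.

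**Figure D3:**
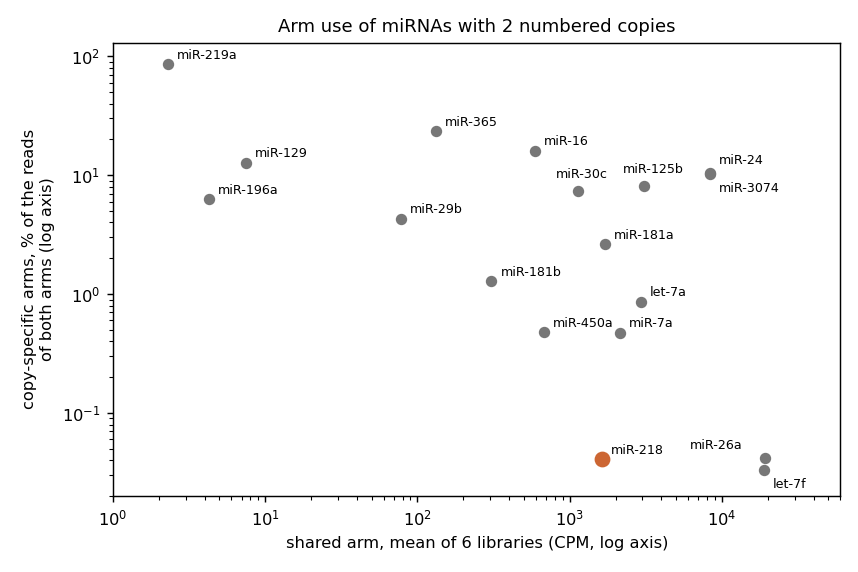
Share of reads from the copy-specific arms (vertical axis, percent, log scale) against the mean level of the shared arm (horizontal axis, CPM, log scale) for 18 miRNAs with copies numbered 1 and 2, one point each, with reads of all 6 libraries pooled for the share. miR-218, at 0.0409%, lies at the bottom beside let-7f and miR-26a, but at a lower level of its shared arm (1622 CPM) than either.

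The miRNAs whose levels followed miR-218-5p most closely over the 6 libraries were found by the root mean square difference of their log2(CPM + 0.5) profiles, each centred on its own mean. Among 256 other miRNAs with a mean of at least 10 CPM the median of this distance was 0.79. The nearest were miR-690 at 0.20, miR-361-5p at 0.21, miR-146b-3p at 0.24, miR-155-5p at 0.24, miR-29c-5p at 0.26 and miR-674-5p at 0.26. The libraries behind all of them are the same 6. The scaling of a library is common to its miRNAs and hardly alters this distance. After TMM scaling the same 6 miRNAs were nearest in the same order, from 0.20 for miR-690 to 0.26 for miR-674-5p. The measure was picked out of many miRNAs and carries no test.

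For miR-690, the nearest, control libraries 1, 2 and 3 held 6.20, 6.996 and 3.51 CPM and CIH libraries 1, 2 and 3 held 16.8, 12.2 and 15.7 CPM. For miR-361-5p, in the same order, the controls held 39.3, 35.8 and 16.8 CPM and the CIH libraries 55.7, 39.7 and 59.5 CPM. Both are lowest in control library 3 and have their lowest CIH value in library 2, as miR-218-5p does. For miR-155-5p, a miRNA of activated immune cells, the controls held 155, 176 and 90.7 CPM and the CIH libraries 308, 207 and 525 CPM. It went higher than miR-218-5p in CIH library 3 relative to its own mean. miR-146b-3p and miR-29c-5p are arms of miRNAs linked to inflammation and to matrix genes, and had CIH values of 28.1 to 40.1 CPM and 14.04 to 22.5 CPM against control values of 13.1 to 22.3 CPM and 7.39 to 13.03 CPM. For miR-674-5p the controls held 3.995 to 8.27 CPM and the CIH libraries 13.6 to 14.5 CPM.

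**Figure D4:**
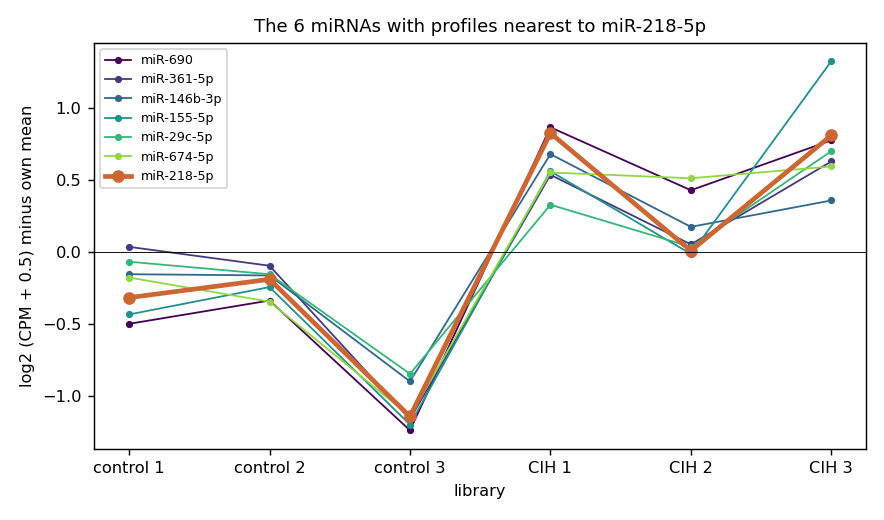
Log2(CPM + 0.5) minus each miRNA's own mean over the libraries (vertical axis) in the 6 libraries (horizontal axis) for miR-218-5p (thick line) and the 6 miRNAs nearest to it, where lines only join the points of one miRNA. All 7 are lowest in control library 3, and miR-155-5p departs most from miR-218-5p in CIH library 3 (525 CPM).

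miR-218 is one of several miRNAs reported to steer mesenchymal progenitors toward or away from bone, many through Wnt signalling or Runx2. A list of 24 others of this kind held 23 in all tables. By mean CPM over the 6 libraries miR-218-5p (1622 ± 786, SD, n = 6) was seventh among the 24 names it makes with these, between miR-29a-3p (1728 CPM) and miR-30c-5p (1132 CPM), and these 3 overlapped in their libraries. The most abundant were miR-148a-3p, miR-26a-5p and miR-27a-3p. In the 6 libraries 21 of the list were tested, with 0 called (edgeR, adjusted p under 0.05, as for all miRNAs), 13 higher in CIH and a median log2 difference of 0.03, against 0.04 over all 456.

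Within the libraries numbered 1 and 2, where miR-218-5p was called higher, 20 of the list were tested. Of these 0 rose, where 4.14% of all 459 miRNAs were called higher, so few were to be looked for in a list of this size. In all, 2 of its members fell there, where 24 of all 459 miRNAs were called lower and 9.37% were called in either direction. They were miR-322-5p, which is reported to act in bone and cartilage formation (log2 difference -1.30, SE 0.23, adjusted p = 0.000215), and miR-148a-3p, reported to favour adipocyte and osteoclast formation (-0.66, SE 0.21, adjusted p = 0.0348). The list's median was -0.17, against -0.03 over all. miR-26a-5p stood at -0.16 (SE 0.20) and miR-27a-3p, a brake on adipocyte formation, at -0.31 (SE 0.21), neither called.

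Markers of other cell types that could bring miR-218 with them were followed beside it. Since motor neurons hold much miR-218, neuronal miRNAs are given first, but a neuronal source was not tested. Summed over 10 neuronal miRNAs, control libraries 1, 2 and 3 held 542, 311 and 218 CPM, and CIH libraries 1, 2 and 3 held 533, 356 and 213 CPM. The sums were close in the pairs numbered 1 and 3. In the pair numbered 2 the sum was higher in CIH, as miR-218-5p was there (1.15 times the control level). miR-218-5p was also higher in CIH in the pairs numbered 1 and 3. Most of the sum was miR-128-3p (control 159 to 335 CPM, CIH 157 to 423 CPM) and miR-9-5p (control 50.1 to 170 CPM, CIH 50.8 to 91.9 CPM). miR-124-3p, the defining neuronal miRNA, ranged over 0.847 to 11.4 CPM among controls. Among CIH libraries it ranged over 0 to 4.36 CPM, with 0 reads in library 3. Of the 10, 5 were tested in the 6 libraries, with 0 called and a median of -0.53.

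Endothelial miR-126a-3p and miR-126a-5p gave sums of 137, 92.9 and 33.8 CPM over control libraries 1, 2 and 3 and 104, 73.1 and 100.1 CPM over the CIH ones, higher in CIH only in the pair numbered 3. Within CIH this sum, like miR-218-5p, was lowest in library 2. The 4 leukocyte miRNAs had sums of 0.363 to 4.29 CPM among controls and 0.266 to 3.27 CPM among CIH libraries. miR-142a-3p, which defines blood cells, had 3 reads or fewer in every library, and miR-223-3p was at 0 in both libraries numbered 3. Muscle miRNAs, of which 4 of 7 were in all tables, had sums of 15.6 to 113 CPM among controls and 13.9 to 41.2 CPM among CIH libraries, most of it miR-1a-3p. Epithelial miRNAs, led by miR-205-5p, had sums of 76.3 to 409 CPM among controls and 18.6 to 170 CPM among CIH libraries. They were lower in CIH in each pair. Within the libraries numbered 1 and 2, of 5 tested 0 rose and 2 fell. They were miR-205-5p (log2 difference -1.44, SE 0.24, edgeR adjusted p = 0.000153) and miR-203-3p (-1.24, SE 0.31, adjusted p = 0.00751), both enriched in skin and other epithelia. Of all 459 miRNAs there, 24 were called lower and 9.37% were called in either direction.

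Stromal miRNAs had sums of 63987 to 147565 CPM among controls and 102098 to 123504 CPM among CIH libraries. miR-143-3p made up most of each sum except that of CIH library 3 (55147 of 123504 CPM). The sums were lower in CIH in the pairs numbered 1 and 2, at 119590 against 130465 CPM and 102098 against 147565 CPM. They were higher in the pair numbered 3, at 123504 against 63987 CPM. In that pair CIH held 42469 CPM of miR-199a-3p and control 3220 CPM. In CPM of the whole library, the stromal sum was, like miR-218-5p, lowest of all in control library 3 and, within CIH, lowest in library 2. The sum is given on this scale only, and miR-148a-3p took 49.4% of control library 3. The members of the stromal list were divided over these lows. Both were seen in miR-199a-3p, in miR-214-3p (126 CPM in control library 3, 373 CPM in CIH library 2) and in miR-145a-5p (440 and 490 CPM). miR-143-3p was lowest of all in CIH library 3 (55147 CPM, against 57127 CPM in control library 3). miR-199a-5p was lowest of all in CIH library 1 (2040 CPM, against 2731 CPM in control library 3). So was miR-199b-5p (129 CPM, against 343 CPM in control library 3). In the fit of the 6 libraries 5 of the 6 stromal miRNAs were higher in CIH, with 0 called and a median log2 difference of 0.91, close to the 0.95 of miR-218-5p and against 0.04 over all miRNAs. Within the libraries numbered 1 and 2, 0 of the 6 were higher, with a median of -0.22 against -0.03 over all. The part of any of these cell types in the level of miR-218-5p was not tested. In bulk libraries a different number of cells that hold a miRNA and a different amount per cell cannot be told apart.

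**Figure D5:**
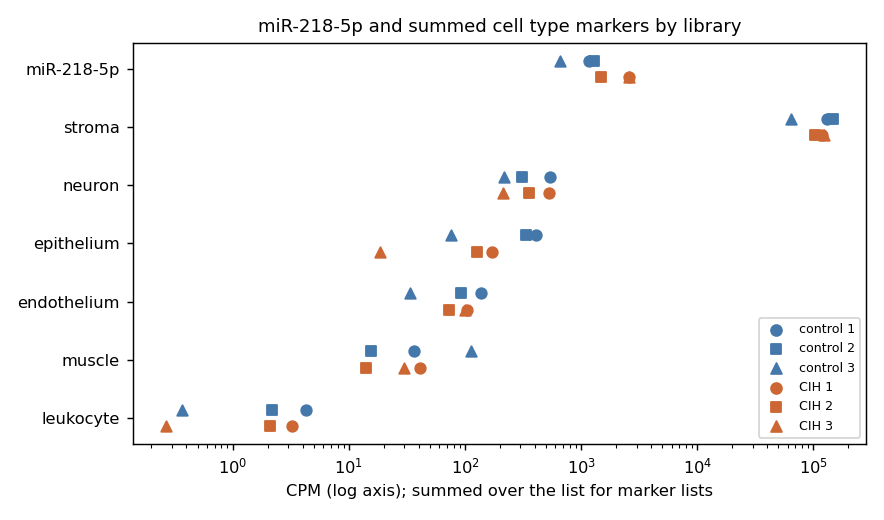
CPM (horizontal axis, log scale) of miR-218-5p and of 6 summed lists of cell type markers (vertical axis) in each library, with colour for the group and symbol for the library number. The neuronal sums of control and CIH lie close together in the pairs numbered 1 (542 and 533 CPM) and 3 (218 and 213 CPM). In the pair numbered 2 the sum is higher in CIH (311 and 356 CPM). miR-218-5p lies further right in CIH in each pair, least so in the pair numbered 2.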

How the data were processed

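Small RNA of 3 control and 3 CIH libraries had been sequenced on an Illumina HiSeq instrument, per the labels' protocols. DESeq 1.8.3, featureCounts 1.5.0-p3 and the build GRCm38 come from the submitters' processing notes, which give no roles. How reads were trimmed, aligned and assigned when they match several miRNAs is, in the sources used here, not given. The authors deposited raw counts per mature miRNA. In 3 tables the header says FPKM, but the values are whole numbers with a different total in each library and were taken as counts. CPM divides by the whole library.

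The 929 known names in every table (at least 99.97% of each library's reads) were tested with edgeR 4.0.16 (quasi-likelihood F test, robust, TMM, filterByExpr, Benjamini-Hochberg at 0.05) under R 4.3.3, with a single term for group. DESeq2 1.42.0 and limma 3.58.1 (voom) were alternatives. Shares were tested with two-sided exact permutation tests (scipy 1.17.1). The copy share had been planned over 6 libraries and was computed over the 4 that list both copies. Scripts were tested on simulated data. Positions come from the RefSeq table of GRCm38.p6. No miRNA sequence was used here, so names with the same seed were not looked up.

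Named miRNAs were the miR-218 rows, miRNA genes within Slit2 or Slit3, up to 3 of each list by mean CPM, the 5 two-copy miRNAs with most reads and the 6 nearest profiles. List members that were called, miR-29a-3p, miR-30c-5p, miR-124-3p, miR-142a-3p and miR-223-3p were added to these once their values had been seen. The same holds for miR-214-3p, miR-145a-5p and miR-199b-5p. The members, lists and tests were chosen with earlier results of these data known. The main fits have no block. An alternative blocked on the library number, since deviations from the group means correlated across miRNAs at 0.35, 0.39 and 0.40 between libraries of the same number. Control library 1 correlated higher still with CIH library 2 (0.43), and control library 2 with CIH library 1 at 0.20, so these values set the libraries numbered 3 apart and do not tell the pairs numbered 1 and 2 from each other. No 2 libraries of a group agreed within counting noise (lowest chi-square per degree of freedom 135), and each counted as 1 replicate.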

Additional observations from a re-analysis of the deposited data

How the results depend on the processing

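The log2 difference of miR-218-5p between CIH and control kept its sign in all 14 alternatives over the 6 libraries (0.85 to 1.11) and in all 11 within the libraries numbered 1 and 2 (0.54 to 1.10). It was called in none of the 14, and in 7 of the 11. Within the libraries numbered 1 and 2 the call was lost with library totals alone (0.73) and without 3 of the 4 libraries, and leaving out each library in turn gave 0.54 to 1.10. The count of 43 miRNAs called there ran from 9 to 97 when each library was left out, where a lone library is taken to vary as the others do. The replicate block did not change the call of miR-218-5p, which stood at 0.93 in the 6 libraries and 0.82 in those numbered 1 and 2, with 0 and 48 miRNAs called (0 and 43 without the block), and the exact sign-flip permutation test of the 3p share gave p = 0.5. The difference between the libraries numbered 3 and the rest turned negative with library totals alone (-0.23), with no filter on low counts (-0.00225) and with totals without the 10 most abundant miRNAs (-0.30), an alternative chosen after seeing the data, and ran from -0.022 to 0.30 when each library was left out. The cause was not tested. The median of all tested miRNAs in that contrast moved from -0.11 to -0.49 with library totals alone. The difference in copy share, 6.67 percentage points, was -0.31 on the log2 odds scale and ran from -18.3 to 31.7 percentage points when each library was left out, since it rests on 21 reads. Depth limits the 3p arms and not the 5p arm.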
